A study of Mus musculus with 6 samples.

Results

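The replication-dependent core histone genes encode the H2A, H2B, H3 and H4 proteins around which newly copied DNA is wound. They were taken as the genes whose symbol starts with H2ac, H2bc, H3c or H4c followed by a number, and 50 of the 31253 genes in the matrices met this rule (14 H2ac, 14 H2bc, 12 H3c and 10 H4c genes). Their levels were described in peripheral blood mononuclear cells of male mice aged 12 to 13 weeks, in 3 T2D libraries and 3 Con libraries. T2D mice were a model of type 2 diabetes: the series title gives a high-fat diet with streptozotocin, a toxin of the insulin-producing beta cells, and the sample labels give streptozotocin injected into the peritoneum. Con mice received saline by the same route, and the labels name no strain and no diet for them. Whether each library came from 1 mouse or from several pooled is not stated, so the p-values below measure only the spread between these 3 and 3 libraries, which may be technical.

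Messenger RNAs of these genes are made mainly while a cell copies its DNA. Most messenger RNAs end in a poly(A) tail, but a replication-dependent histone messenger RNA classically ends just after a short stem-loop, which is bound by the protein SLBP and is removed with the message when S phase stops. Some of the genes also give polyadenylated messages, which are known from differentiated and non-dividing cells. Poly(A) tails were used to capture the 3′ ends that were sequenced here, so a message that ends at the stem-loop may be captured poorly, and the values below are levels of captured molecules. The number of captured molecules was counted by unique molecular identifiers (UMIs) and is given as CPM, a gene's UMIs over all UMIs of the same cells times 1000000. UMI counts were not divided by gene length.

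Of 49407 barcodes, 49025 were kept, with 23574052 to 32321855 UMIs per library and a median of 2814 to 3244 UMIs per kept cell. Any pair of libraries shared at most 89 barcodes. Cell types were gated by marker UMIs, and 11080 cells (22.6%) fell in no gate. Marker sums and mitochondrial shares of the gates were taken over cells without a Mki67 or Top2a UMI. The lineage marker sums of each gate were high for its own lineage and lower for others, with some libraries at 0. NK markers were at 3411 to 3639 CPM in the NK gate of T2D libraries and 3314 to 3389 CPM in that of Con libraries, and B markers at 59.0 to 87.0 CPM in T2D and 85.3 to 113.8 CPM in Con libraries. Erythroid genes were at 287.5 to 7495 CPM in the NK gate of T2D libraries, against 133.9 to 161.8 CPM in that of Con libraries, and their part in the NK results below was not tested.

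The stem-loop at the end of the messages was searched for in the annotated transcripts (GENCODE M21, built on GRCm38, the build called mm10) as 6 paired bases around a loop of 4 bases. The stem had to open with GG and pair in full, and the loop had to open with T. A stem-loop of another form would be missed, and no stem-loop below means none that met these terms. Stem-loops that met them were found in 34 of the 50 members, in 8 forms. These are shown because they group the members by the very end of their messages, with the paired bases in capitals and the loop in lower case, 5′ to 3′.
H2bc8, H2ac6, H3c1, H2bc6 and 14 further members: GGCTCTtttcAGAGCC
H3c6, H2bc3, H3c7, H3c3 and H2bc12: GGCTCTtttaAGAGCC
H4c4, H4c3, H4c8 and H4c6: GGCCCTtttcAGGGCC
H4c9 and H4c14: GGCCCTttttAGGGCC
H4c2 and H4c11: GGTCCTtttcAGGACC
H2ac20: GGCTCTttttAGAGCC
H4c1: GGCCCTtctcAGGGCC
H3c8: GGCTCTtcttAGAGCC
The forms whose stem opens with GGCTCT belonged to H2ac, H2bc and H3c genes, and the H4c genes had the stems that open with GGCCCT or GGTCCT.

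Members grouped by the annotated end of the message differed in how many UMIs they had. Both members that had a longer 3′ end and no stem-loop, H2bc4 and H2bc21, held 41.7% of all core histone UMIs, and H2bc4 gave 7076 of their 8263 UMIs. The 16 members with more than 100 bases annotated after the stem-loop held 39.4%, with a median of 347.5 UMIs. The 18 members whose transcript ended within 100 bases of the stem-loop held 14.3%, with a median of 38.5 UMIs, and H3c1, with 1143 UMIs, was the highest of them. The 14 members with neither a stem-loop nor more than 100 bases after the stop codon held 4.56%, with a median of 12 UMIs. Apart from H3c13, with 37 bases, they had at most 2 bases annotated after the stop codon. The part of such missing annotation in their counts was not tested. These are descriptions of annotated ends, and the ends used in these cells were not measured.

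**Figure D1:**
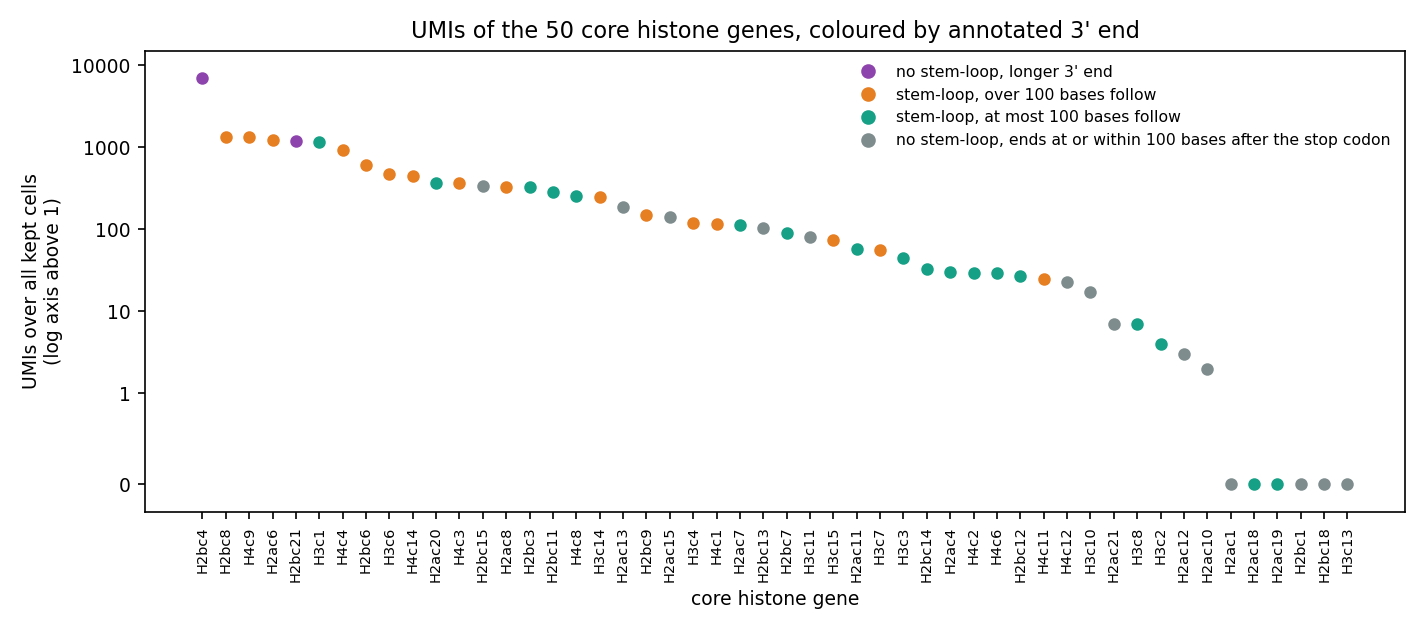
UMIs of each of the 50 core histone genes over all kept cells of the 6 libraries (vertical axis, logarithmic above 1), ordered from most to fewest and coloured by the annotated end of the transcript. H2bc4 stands highest at 7076 UMIs, and 7 of the 8 highest members have either no stem-loop of the searched form and a longer end or more than 100 bases after the stem-loop.

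Core histone UMIs were few and unevenly spread over the genes. The 50 members had 19804 of 167276824 UMIs, or 118 CPM. At least 1 UMI was counted for 44 members, 25 of them had 100 or more, and 6 were listed at 0: H2ac1, H2ac18, H2ac19, H2bc1, H2bc18 and H3c13. H2ac1 and H2bc1 encode the testis forms of H2A and H2B. All 100-base stretches of H2ac19 also occur in other genes, and so do 88.3% of those of H2ac18, so reads of such copies may have been counted elsewhere or dropped. By family, H2bc genes held 58.4% of core histone UMIs, H4c genes 17.8%, H2ac genes 12.4% and H3c genes 11.4%. The 8 members with the most UMIs held 74.8%: H2bc4 (7076), H2bc8 (1341), H4c9 (1323), H2ac6 (1211), H2bc21 (1187), H3c1 (1143), H4c4 (920) and H2bc6 (613).

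The members lie in clusters on 2 chromosomes, 40 on chromosome 13 and 10 on chromosome 3. Within these clusters, 10 pairs of neighbours pointed away from each other with less than 1000 bases between them, and 9 of the 10 joined an H2A gene with an H2B gene. H2bc4 (chromosome 13, 23684199 to 23692908, plus strand, GRCm38) and H2ac6 (23681467 to 23683948, minus strand) were such a pair, 250 bases apart. H2bc8 (23571396 to 23572013, plus strand) and H2ac8 (23570517 to 23571220, minus strand) were another, 175 bases apart.

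The most abundant member, H2bc4, was counted to a large part in barcodes that carried platelet messages. Platelets have no nucleus and carry messages from the megakaryocytes that shed them, and Pf4 and Ppbp encode chemokines stored in their granules. The 1191 barcodes with 5 or more Pf4 and Ppbp UMIs held 2.71% of all UMIs and 37.0% of the H2bc4 UMIs. With no Pf4 or Ppbp UMI, H2bc4 was at 19.7 to 23.6 CPM in T2D libraries and 15.97 to 27.3 CPM in Con libraries. With 2 to 4 such UMIs it was at 163.1 to 174.8 CPM in T2D libraries and 100.4 to 178.1 CPM in Con libraries. With 20 or more it was at 1086 to 2169 CPM in T2D libraries and 1526 to 1829 CPM in Con libraries. The groups overlapped in each of these classes, while every library stepped up from each class to the next.

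H2ac6, the neighbour of H2bc4, followed the same order in the means of each group, though not in every library. It was at 4.80 to 5.35 CPM in T2D libraries and 3.42 to 4.98 CPM in Con libraries where no platelet UMI was counted, and at 101.6 to 615.8 CPM in T2D libraries and 203.5 to 278.6 CPM in Con libraries where 20 or more were. H2bc8 did not: it was at 0 to 7.81 CPM over the 6 libraries where 20 or more platelet UMIs were counted, and at 6 to 9.75 CPM where none was. The members other than H2bc4 and H2ac6 summed to 58 to 73.95 CPM over the 6 libraries where no platelet UMI was counted. Where 20 or more were counted, they summed to 230.5 to 656 CPM. The class limits were chosen after the values were seen, and no test was made. In 236 barcodes with 5 or more platelet UMIs and at most 1 UMI of any other lineage sum, the members summed to 3512, 2827 and 3230 CPM in T2D libraries and 3156, 3430 and 2917 CPM in Con libraries. H2bc4 gave 66.7 to 71.6% of those UMIs in T2D libraries and 68.6 to 78.5% in Con libraries.

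**Figure D2:**
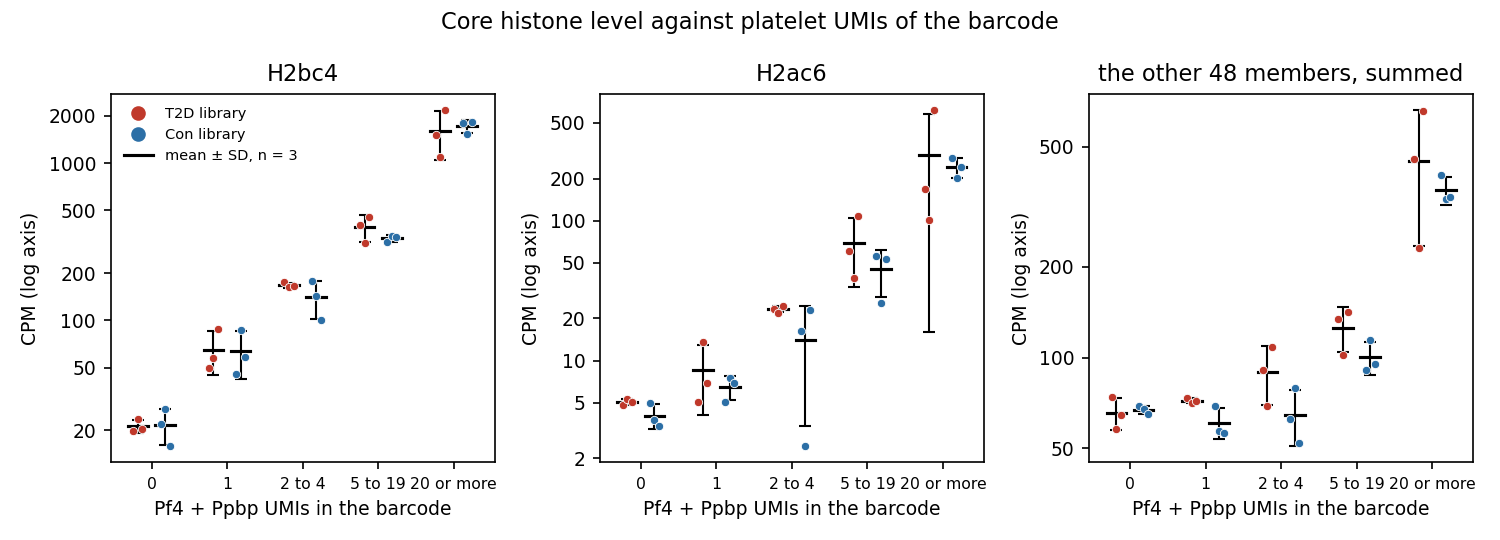
Level of H2bc4, of H2ac6 and of the other 48 members summed (CPM, logarithmic axes) in barcodes grouped by their number of Pf4 and Ppbp UMIs. Points are libraries, T2D left of Con in each class, and bars are mean ± SD (n = 3). H2bc4 reaches 1086 to 2169 CPM where 20 or more platelet UMIs were counted.

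Outside platelets, the summed level of the core histone genes followed the cell type more than the group. The gates below allowed at most 1 platelet UMI, and cells with a Mki67 or Top2a UMI, which mark dividing cells, were left out. Over the 6 libraries, the sum averaged 338.6 ± 94.5 CPM (SD, n = 6) in neutrophils, 259 ± 101 in NK cells, 106 ± 30.6 in classical monocytes, 102 ± 13.6 in B cells and 81.6 ± 21.3 in non-classical monocytes. It averaged 57.1 ± 7.03 CPM in CD4 T cells and 45.3 ± 5.22 CPM in CD8 T cells. The ranges of neutrophils and NK cells overlapped, as did those of classical monocytes, B cells and non-classical monocytes. The lowest NK library, at 150.6 CPM, was above the highest library of any T cell, B cell or monocyte gate.

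The members that made up the sum differed between gates. H2bc4 gave 72.1% of core histone UMIs in neutrophils, 39.6% in classical monocytes, 21.3% in B cells and 19.3% in T cells, but 9.63% in NK cells. NK cells were led by H2bc8, with 19.8% of the UMIs, followed by H3c1 with 13.2%. H2bc8 averaged 49.1 ± 28.1 CPM in NK cells and 10.9 ± 2.71 CPM in B cells, and was at most 8.84 CPM in any library of the monocyte, neutrophil and T cell gates that had at least 30 cells in every library. Its lowest NK library, at 14.2 CPM, was above its highest B cell library, at 13.2 CPM. H2bc21 gave 10.7% of core histone UMIs in T cells, 8.91% in B cells and 0.251% in neutrophils. H2bc6 gave 9.80% in neutrophils and 2.44% in T cells.

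**Figure D3:**
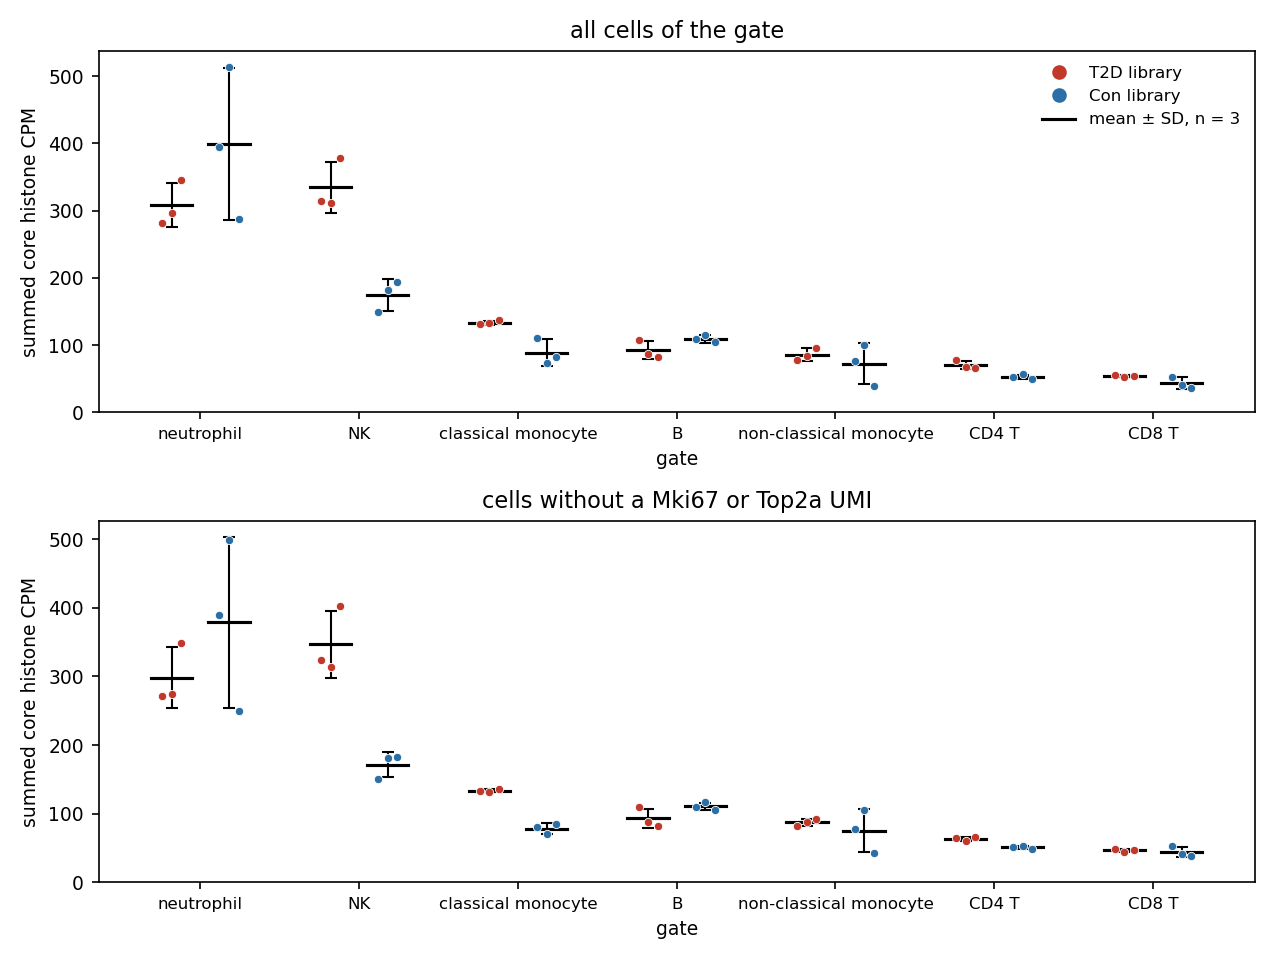
Summed CPM of the 50 core histone genes per library in 7 gates, over all cells of the gate (above) and over cells without a Mki67 or Top2a UMI (below). Points are libraries, T2D left of Con, and bars are mean ± SD (n = 3). In both panels the 3 T2D libraries lie above the 3 Con libraries in NK cells, classical monocytes and CD4 T cells.

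NK cells showed the largest difference of the summed level between the groups among the gates with at least 30 cells in every library. Without cycling cells, the members summed to 323.6, 314.0 and 402.5 CPM in T2D libraries and 150.6, 181.3 and 182.4 CPM in Con libraries, a ratio of means of 2.02. All 3 T2D libraries were above all 3 Con libraries. The H2ac genes summed to 52.2, 36.1 and 69.6 CPM in T2D libraries and 6.69, 10.7 and 20.6 CPM in Con libraries, 4.16 times as high on average, from 98 UMIs in T2D and 12 UMIs in Con libraries. The H2bc genes averaged 181.9 ± 24.7 CPM in T2D libraries and 82.1 ± 8.41 CPM in Con libraries (SD, n = 3 each). The H4c genes averaged 58.1 ± 12.3 CPM in T2D and 36.7 ± 8.93 CPM in Con libraries without overlap, and the H3c genes, at 54.1 ± 16.9 in T2D and 40.05 ± 15.45 CPM in Con libraries, overlapped. In cells that also had no platelet UMI, the sum averaged 349.2 ± 50.1 CPM in T2D libraries and 175.6 ± 22.3 CPM in Con libraries.

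H2bc8, an H2B gene, rose in T2D NK cells. It was at 62.6, 53.0 and 93.8 CPM in T2D libraries, against 26.8, 14.2 and 44.1 CPM in Con libraries, from 129 UMIs in T2D and 27 UMIs in Con libraries. The lowest T2D library was above the highest Con library. The log2 fold change was 1.26 ± 0.32 (SE), with an adjusted p of 0.0466 in edgeR's quasi-likelihood test over 5995 genes. In this comparison 0.150% of genes tested were called higher. With cycling cells the value was 1.12 with an adjusted p of 0.0973, and DESeq2 gave 1.27 with an adjusted p of 0.683. The call was lost with library totals in place of TMM scaling (adjusted p 0.0539), with doublets left out (0.0592) and with wider removal of cycling cells (0.206), in edgeR each time. It was also lost without T2D library 3 (log2 fold change 1.00, adjusted p 0.423), without Con library 1 (1.21, 0.112) and without Con library 2 (0.96, 0.347), in edgeR as before. With a stricter gate that allowed no UMI of other lineages, H2bc8 was below the filter on low counts and was not tested. Of the 100-base stretches of H2bc8, 44.9% occur also in other genes, most of them H2bc genes, so some UMIs may belong to a near-identical copy.

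The stretch between H2bc8 and its neighbour H2ac8 is shown because both genes start from it. It is taken from the RefSeq promoter of H2bc8 (GRCm38.p6, chr13:23571221-23571395, plus strand), 5′ to 3′, with the CCAAT box (CCAAT, also as ATTGG on the other strand), the octamer (ATTTGCAT) and the TATA box (TATAAA) in capitals.
H2bc8 and H2ac8, shared upstream stretch: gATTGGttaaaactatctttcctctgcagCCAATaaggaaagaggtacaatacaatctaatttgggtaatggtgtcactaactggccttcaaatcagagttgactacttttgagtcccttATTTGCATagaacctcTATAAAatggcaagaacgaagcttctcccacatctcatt
The octamer, the motif bound by the POU factors OCT1 and OCT2, starts 59 bases before the RefSeq start of H2bc8 and the TATA box 43 bases before it. Of the members, 45 had a promoter in the RefSeq table, from 250 bases before to 50 bases after the start, and both strands were searched. The octamer was present in 7 of 13 windows of 12 H2bc genes (53.9% of windows) and 6 of 14 windows of H2ac genes (42.9%), in none of the 10 windows of H3c or the 9 windows of H4c genes, and in 1.74% of the 32851 promoters in the table. CCAAT was present in all 13 H2bc, 14 H2ac and 10 H3c windows, in 3 of 9 H4c windows and in 37.4% of all promoters. TATAAA was present in 6 of 13 H2bc, 10 of 14 H2ac, 4 of 10 H3c and 6 of 9 H4c windows and in 13.6% of all promoters. Some windows overlap between divergent neighbours, so the counts are not of independent sequences.

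Other members in NK cells had lower counts, and 3 of the 50 passed the filter on low counts. H3c1, an H3 gene, was at 40.3, 33.9 and 49.9 CPM in T2D libraries and 26.8, 39.1 and 26.5 CPM in Con libraries, with overlapping groups (log2 fold change 0.45 ± 0.35, adjusted p 0.804, edgeR). H2bc4 was at 34.3, 31.8 and 31.8 CPM in T2D libraries and 20.1, 21.3 and 14.7 CPM in Con libraries (0.81 ± 0.43, adjusted p 0.648, edgeR), without overlap. H4c4, an H4 gene, was at 22.4, 25.5 and 24.2 CPM in T2D libraries and 6.69, 3.55 and 14.7 CPM in Con libraries, and did not pass the filter. H2ac6, with 32 UMIs in T2D and 3 UMIs in Con libraries, was at 17.9, 12.7 and 21.2 CPM in T2D libraries, against 0, 7.11 and 2.94 CPM in Con libraries.

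The T2D libraries held 614 of the NK cells and the Con libraries 305, so members with few UMIs had more chances to be seen in T2D. H4c9 had the lower mean in T2D, at 2.98, 14.9 and 7.57 CPM in T2D libraries and 6.69, 21.3 and 17.6 CPM in Con libraries.

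**Figure D4:**
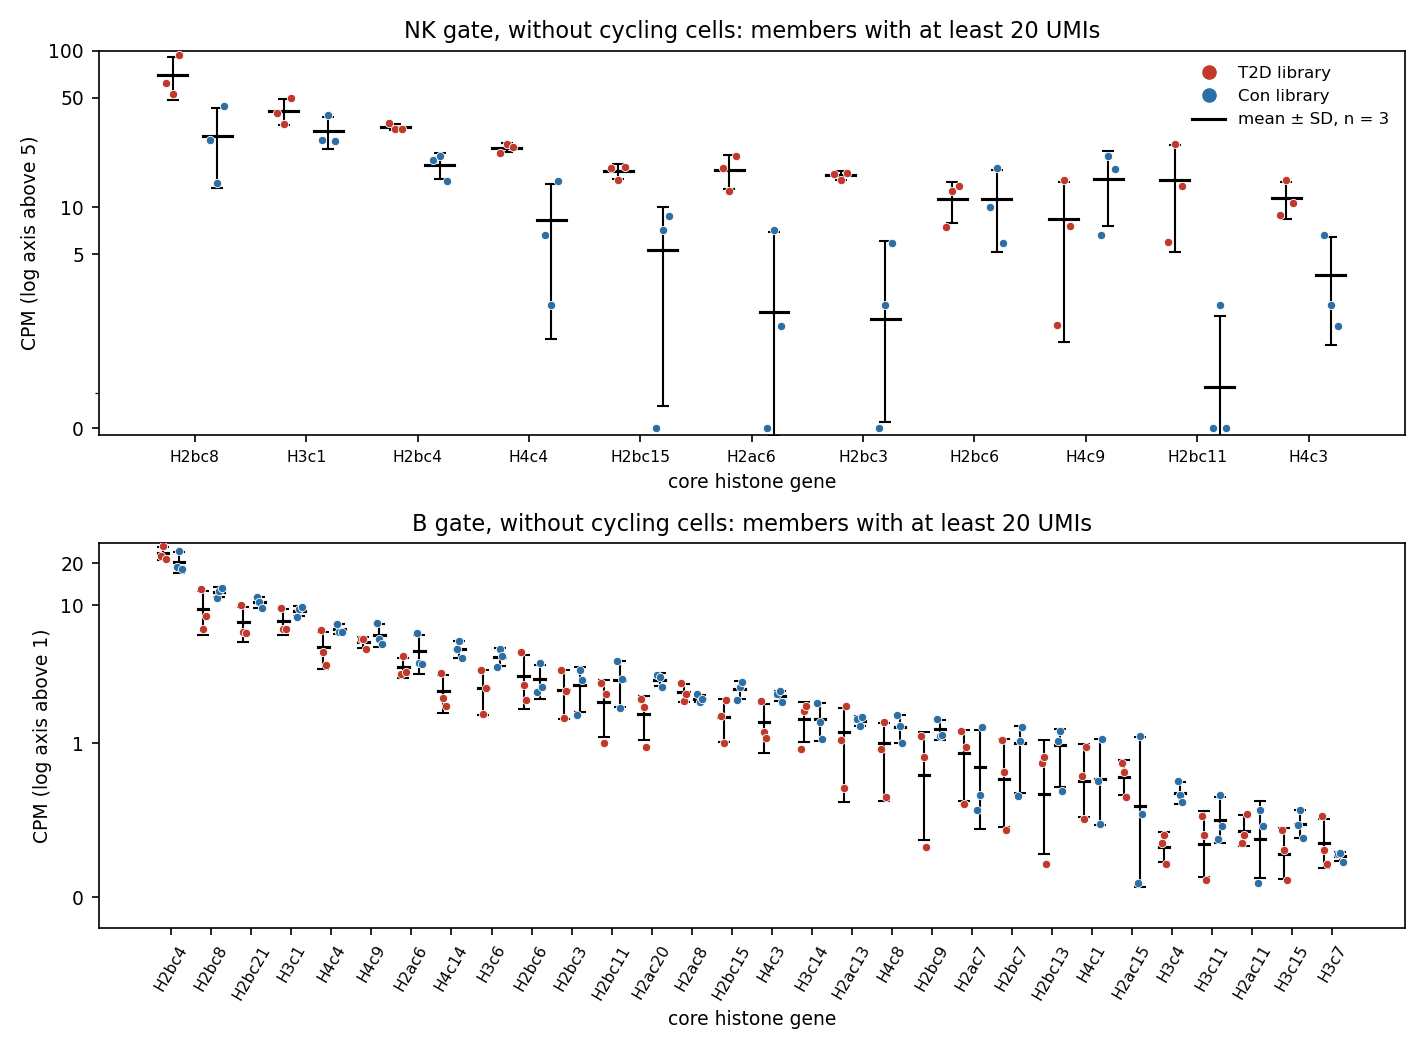
CPM of each core histone gene with 20 or more UMIs over both groups in NK cells (above) and B cells (below), without cycling cells, on axes that are logarithmic above 5 and 1 CPM. Points are libraries, T2D left of Con for each gene, and bars are mean ± SD (n = 3). The T2D libraries of H2bc8 lie above its Con libraries in NK cells, and those of H4c14 lie below its Con libraries in B cells.

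Classical monocytes differed in the same direction as NK cells in the summed level. The members summed to 133.6, 131.7 and 135.3 CPM in T2D libraries and 80.1, 70.1 and 84.7 CPM in Con libraries, a ratio of 1.70, without overlap. Platelet UMIs were also counted in this gate, at 23.4 to 42.8 CPM in T2D and 35.6 to 67.9 CPM in Con libraries, and erythroid UMIs at 245.9 to 700.2 CPM in T2D and 133.2 to 340.5 CPM in Con libraries. B markers were at 45.3 to 61.5 CPM in T2D and 70.6 to 75.7 CPM in Con libraries, and NK markers at 118.4 to 165.7 CPM in T2D and 187 to 221.9 CPM in Con libraries, both without overlap. The part of these markers in the result was not tested. In classical monocytes with no platelet UMI the sum averaged 128.2 ± 8.99 CPM in T2D libraries and 63.5 ± 11.1 CPM in Con libraries (SD, n = 3 each), again without overlap. H2bc4, the one member that passed the filter here, was at 59.6, 48.3 and 48.1 CPM in T2D libraries and 20.03, 38.5 and 44.4 CPM in Con libraries (0.55 ± 0.29, adjusted p 0.781, edgeR). The groups did not overlap, but the difference did not pass the test, where 0.345% of genes tested did. H2ac6 was at 2.39, 21.9 and 23.4 CPM in T2D libraries and 4.45, 4.52 and 10.1 CPM in Con libraries, so the first T2D library was below every Con library.

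Neutrophils and non-classical monocytes overlapped between the groups. In neutrophils the members summed to 271.6, 274.1 and 348.9 CPM in T2D libraries and 389.1, 498.2 and 249.9 CPM in Con libraries. H2bc4 made up most of it, at 168.6, 181.0 and 212.0 CPM in T2D libraries and 297.3, 427.0 and 132.7 CPM in Con libraries (log2 fold change −0.67 ± 0.34, adjusted p 0.727, edgeR), where 0.789% of genes tested were called. In neutrophils with no platelet UMI, H2bc4 averaged 171.6 ± 42.2 CPM in T2D libraries and 273.2 ± 159.3 CPM in Con libraries. H2bc6 was at 46.8, 36.2 and 26.5 CPM in T2D libraries and 54.0, 22.5 and 39.0 CPM in Con libraries, and H4c9 at 18.7, 15.5 and 48.6 CPM in T2D libraries and 16.2, 26.2 and 31.2 CPM in Con libraries. In non-classical monocytes no member passed the filter on low counts, and the sum was at 82.6, 88.1 and 92.8 CPM in T2D libraries and 77.6, 105.7 and 42.9 CPM in Con libraries.

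In B cells 18 of the 22 members tested had a negative log2 fold change, and none was called without cycling cells. The sum was at 109.2, 87.5 and 82.3 CPM in T2D libraries and 109.2, 116.5 and 105.8 CPM in Con libraries, and the groups overlapped through the first T2D library. Without H2bc4, the other members summed to 86.6, 60.9 and 60.7 CPM in T2D libraries and 90.4, 91.9 and 87.7 CPM in Con libraries, without overlap, a ratio of 0.77. This sum was not a planned result. H2bc4, the member with the most UMIs in this gate, had the higher mean in T2D libraries. The sum of all members had a ratio of 0.84, with overlap. T markers were at 40.3 to 42.1 CPM in the B gate of T2D libraries and 27.4 to 37.5 CPM in that of Con libraries, and NK markers at 4.46 to 7.61 CPM in T2D and 2.66 to 2.93 CPM in Con libraries, both without overlap, and their part in these values was not tested. The median log2 fold change of the members tested was −0.39, against −0.002 over all 11422 genes tested, with the members that did not pass the filter left out. None passed an adjusted p of 0.05 in edgeR, 5 were at an unadjusted p under 0.05 and DESeq2 called none, where 1.68% of genes tested were called.

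H4c14, an H4 gene of the chromosome 3 cluster, fell in T2D B cells when cycling cells were included. It was at 3.18, 2.22 and 1.86 CPM in T2D libraries and 4.72, 5.40 and 4.25 CPM in Con libraries, from 79 UMIs in T2D and 168 UMIs in Con libraries. Every T2D library was below every Con library. The log2 fold change was −0.97 ± 0.24, with an adjusted p of 0.0452 in edgeR over 11498 genes, of which 0.983% were called lower. Without cycling cells it was −0.99 with an adjusted p of 0.0504 in edgeR. Cycling cells were 3.10, 3.70 and 3.61% of B cells in T2D libraries and 2.81, 2.63 and 2.52% in Con libraries, without overlap. The call with cycling cells was lost without any of T2D libraries 2 and 3 and Con libraries 1, 2 and 3, with an adjusted p up to 0.208, with a stricter gate that allowed no UMI of other lineages (0.0884) and with no platelet UMI (0.0545), in edgeR each time. DESeq2 gave it no adjusted p with cycling cells and 0.0812 without them. No 100-base stretch of H4c14 occurs in another annotated gene.

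The most abundant members in B cells did not pass the test. H2bc4 was at 22.6, 26.6 and 21.6 CPM in T2D libraries and 18.8, 24.6 and 18.2 CPM in Con libraries (0.19 ± 0.12, adjusted p 0.509, edgeR). H2bc8 was at 12.9, 6.69 and 8.38 CPM in T2D libraries and 11.3, 12.6 and 13.2 CPM in Con libraries (−0.41 ± 0.20, adjusted p 0.356, edgeR). T2D libraries 2 and 3 were below all Con libraries and T2D library 1 was not. H2bc21, an H2B gene with no stem-loop of the searched form in its annotated transcript, was at 10.1, 6.38 and 6.31 CPM in T2D libraries and 11.4, 10.4 and 9.54 CPM in Con libraries (−0.46 ± 0.18, adjusted p 0.217, edgeR). H2bc8 and H2bc21 both passed when T2D library 1 was left out.

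H3c1 was at 9.54, 6.69 and 6.74 CPM in T2D B cells and 8.18, 9.30 and 9.62 CPM in Con B cells (−0.25 ± 0.17, adjusted p 0.538, edgeR). H4c4 was at 6.56, 4.56 and 3.70 CPM in T2D and 7.33, 6.36 and 6.39 CPM in Con libraries (−0.43 ± 0.21, adjusted p 0.337, edgeR). H4c9, which shares the stem-loop of H4c14, was at 5.69, 5.68 and 4.79 CPM in T2D and 7.43, 5.69 and 5.23 CPM in Con libraries (−0.19 ± 0.19, adjusted p 0.708, edgeR). In all 3 genes the groups overlapped. H2ac6 (−0.39, adjusted p 0.498) and H2bc6 (0.11, adjusted p 0.910, edgeR) overlapped as well, and the sign of H2bc6 turned under some alternatives.

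**Figure D5:**
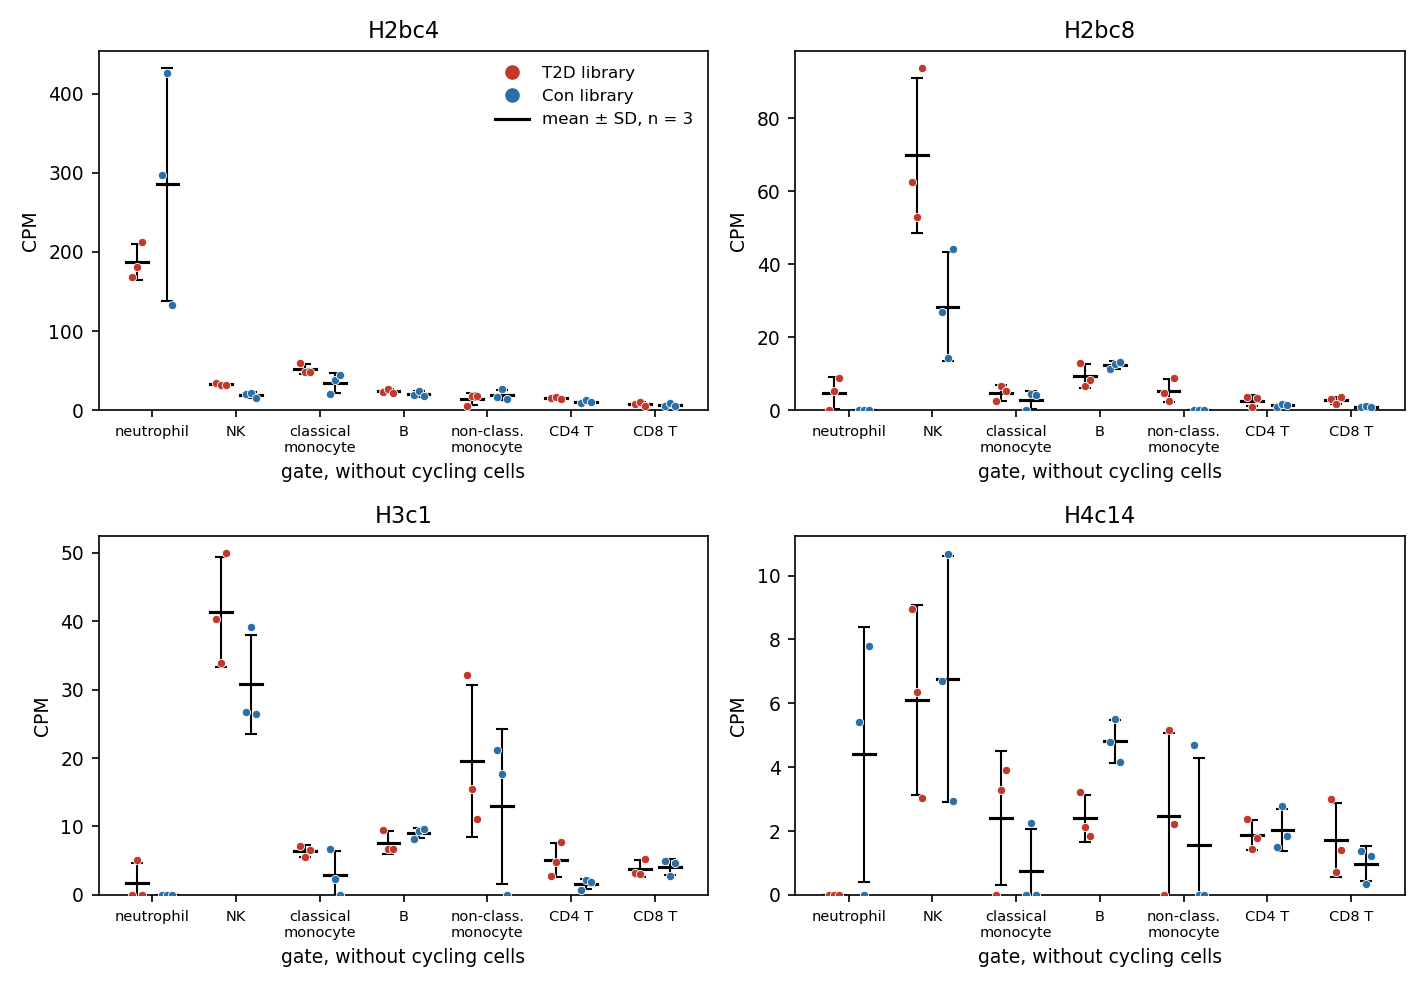
CPM of H2bc4, H2bc8, H3c1 and H4c14 per library in 7 gates, without cycling cells. Points are libraries, T2D left of Con, and bars are mean ± SD (n = 3). H2bc4 is highest in neutrophils and H2bc8 in NK cells, where its T2D libraries lie above its Con libraries.

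T cells had the lowest sums. The ratio of T2D to Con in T, CD4 T and CD8 T cells was lower when cells with a Mki67 or Top2a UMI were left out. It was 1.32 with and 1.24 without them in CD4 T cells, and 1.24 and 1.06 in CD8 T cells. Whether the groups overlapped was the same in both sets for these gates. In T cells with Ccl5 or Nkg7 UMIs the groups overlapped only without cycling cells. Over all T cells the members summed to 60.5 ± 2.22 CPM in T2D and 48.7 ± 3.18 CPM in Con libraries, a ratio of 1.24. Without cycling cells they summed to 54.4, 52.2 and 56.1 CPM in T2D libraries and 50.5, 48.1 and 46.1 CPM in Con libraries, a ratio of 1.12, still without overlap. In CD4 T cells without cycling cells the sum was 64.2, 60.3 and 65.3 CPM in T2D and 51.3, 52.7 and 49.0 CPM in Con libraries, without overlap. In CD8 T cells it was 48.3, 44.6 and 46.7 CPM in T2D and 52.7, 41.8 and 37.7 CPM in Con libraries, with overlap. Erythroid UMIs were at 818.4 to 1868 CPM in the T cells of T2D libraries and 109.3 to 425.7 CPM in those of Con libraries, and in CD4 T cells at 706.7 to 1652 CPM in T2D and 114.5 to 448.8 CPM in Con libraries. NK markers in T cells were at 60.01 to 90.3 CPM in T2D and 42.4 to 58.0 CPM in Con libraries, and B markers at 70.1 to 76.1 CPM in T2D and 76.9 to 92.3 CPM in Con libraries. The mean mitochondrial share of T cells was 4.51 to 5.34% in T2D and 5.57 to 6.03% in Con libraries, and that of CD4 T cells 4.51 to 5.29% in T2D and 5.52 to 5.96% in Con libraries. None of these ranges overlapped between the groups, and their part in the sums was not tested. The share of T cells with a Mki67 or Top2a UMI was 7.42, 7.93 and 8.83% in T2D libraries and 4.69, 3.93 and 4.29% in Con libraries. The exact two-sided permutation test gave 0.1, the smallest p that 3 against 3 libraries allow.

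H2bc8 rose in T2D CD8 T cells when cycling cells were included. It was at 3.70, 2.84 and 4.99 CPM in T2D libraries, against 1.71, 0.977 and 0.882 CPM in Con libraries, from 55 UMIs in T2D and 10 UMIs in Con libraries, with no overlap. The log2 fold change was 1.67 ± 0.47, with an adjusted p of 0.0460 in edgeR, where 1.66% of 10045 genes tested were called higher. DESeq2 gave 1.68 with an adjusted p of 0.220. A Mki67 or Top2a UMI was counted in 8.09, 8.54 and 7.87% of CD8 T cells in T2D libraries. In Con libraries the share was 5.29, 3.94 and 3.97%, without overlap, and its part in the call was not tested. The next values were taken without the cycling cells of this gate. Erythroid UMIs were at 335.6 to 2063 CPM in T2D and 105.5 to 647.5 CPM in Con libraries. NK markers were at 73.5 to 90.5 CPM in T2D and 46.6 to 52.4 CPM in Con libraries, B markers at 66.2 to 75.2 CPM in T2D and 78.0 to 90.5 CPM in Con libraries, and the mean mitochondrial share was 4.60 to 5.38% in T2D and 5.66 to 6.16% in Con libraries, all 3 without overlap. The part of these values in the result was not tested. Leaving out T2D library 2 or any 1 Con library ended the call, with adjusted p-values of 0.0562 to 0.196 in edgeR, as did leaving out doublets (0.0591). Without T2D library 1 or 3, or with the stricter gate, the gene was below the filter on low counts. Without cycling cells H2bc8 did not pass that filter, at 3.00, 1.69 and 3.56 CPM in T2D libraries and 0.909, 1.03 and 0.920 CPM in Con libraries.

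In all T cells with cycling cells, H2bc8 was at 3.63, 2.44 and 4.69 CPM in T2D libraries and 1.38, 1.23 and 2.08 CPM in Con libraries (1.11 ± 0.35, adjusted p 0.0668, edgeR). None of the 13 members tested there was called in edgeR or DESeq2, with 2 at an unadjusted p under 0.05, while 2.89% of all genes tested were called higher and 3.10% lower in edgeR. Without cycling cells none of 11 members was called in T cells (2 at an unadjusted p under 0.05, 3.96% of all genes called), none of 3 in CD4 T cells (0 under 0.05, 3.79%), none of 6 in CD8 T cells (1 under 0.05, 2.31%) and none of 5 in T cells with Ccl5 or Nkg7 UMIs (0 under 0.05, 1.69%), all in edgeR, and DESeq2 called none. H3c1 was at 4.10, 3.63 and 6.86 CPM in T2D and 2.91, 2.57 and 3.42 CPM in Con T cells without cycling cells (0.65 ± 0.29, adjusted p 0.245, edgeR). H2bc21 was at 6.10, 4.17 and 3.81 CPM in T2D and 9.96, 5.69 and 6.05 CPM in Con T cells (−0.64 ± 0.26, adjusted p 0.185, edgeR), with overlap.

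The effects of T2D in different gates were compared directly by an interaction term, without cycling cells. Between T and B cells, 21 members were tested and none was called in edgeR (1.63% of all genes were). H2bc8 came nearest, with an effect higher in T cells than in B cells by 1.26 ± 0.38 on the log2 scale and an adjusted p of 0.0779, followed by H3c1 (0.92 ± 0.32, adjusted p 0.167) and H4c14 (1.29 ± 0.46, adjusted p 0.190). Between NK and T cells none of 16 members was called (0.319% of all genes), and H2bc8 differed by 0.48 ± 0.62 (adjusted p 0.958). Between CD8 and CD4 T cells none of 5 members was called (0.374% of all genes). The effects in B and NK cells were not tested against each other.

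Over all kept cells the members summed to 123.5, 122.7 and 108.2 CPM in T2D libraries and 120.5, 132.6 and 104.6 CPM in Con libraries, with overlap. The means were 118.1 ± 8.60 CPM in T2D libraries and 119.2 ± 14.05 CPM in Con libraries. None of 28 members tested was called in edgeR (3 at an unadjusted p under 0.05) or DESeq2, where 4.21% of genes tested were called in edgeR. H2bc21 was the member nearest to a call, at 7.84, 5.27 and 4.78 CPM in T2D libraries and 10.1, 7.66 and 7.71 CPM in Con libraries (−0.54 ± 0.21, adjusted p 0.181, edgeR). Without cycling cells, B markers were at 1811 to 2080 CPM in T2D libraries and 2349 to 2414 CPM in Con libraries. In the same cells, T markers were at 740.5 to 802.5 CPM in T2D and 541 to 622.1 CPM in Con libraries. The values of the members over all kept cells mix the share of each cell type and of platelet-marked barcodes with the level per cell.

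Some members were higher in cells with a Mki67 or Top2a UMI, at a share not far from that of all genes. The 2595 cells with such a UMI were 5.29% of cells and held 7.91% of all UMIs and 9.90% of core histone UMIs. Their median depth was 4069 UMIs, against 2982 UMIs in the other cells, which bears on whether such a UMI is seen at all. With both sums of each library compared within the library, 6 of 22 members tested rose in cycling cells and none fell in edgeR, where 18.9% of 12329 genes were called higher, and DESeq2 called 6 as well. H2ac8 was at 4.19 ± 2.29 CPM in cycling cells and 1.72 ± 0.23 CPM in other cells (SD, n = 6), higher in 6 of 6 libraries, with a log2 fold change of 1.29 ± 0.31 (adjusted p 0.00315, edgeR). H2ac6 was at 11.5 ± 1.70 CPM in cycling cells and 6.80 ± 0.96 CPM in other cells, also higher in 6 of 6 (0.78 ± 0.15, adjusted p 0.000683, edgeR).

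H2bc4 was at 50.1 ± 11.6 CPM in cycling cells and 41.9 ± 9.32 CPM in other cells, higher in 6 of 6 libraries (0.27 ± 0.07, adjusted p 0.00546, edgeR). H4c9 (0.57 ± 0.16, adjusted p 0.0116), H2bc3 (0.97 ± 0.33, adjusted p 0.0285) and H3c4 (1.33 ± 0.48, adjusted p 0.0389, edgeR) were higher in 5 of 6. H2bc8, H3c1, H2bc21 and H2bc6 did not pass, with log2 fold changes of 0.23, −0.14, −0.08 and −0.06. Without T2D library 1 or without T2D library 2 the number of members called was 3 (H2ac8, H2ac6 and H2bc4). With at least 2 Mki67 and Top2a UMIs asked for, H2ac8, H2ac6 and H2bc3 were called again, but H2bc4 (adjusted p 0.116) and H4c9 (0.118, edgeR) were not, and H3c4 was not tested. H2bc15 (1.42 ± 0.43, adjusted p 0.0140) and H4c4 (0.87 ± 0.29, adjusted p 0.0253) rose at that limit, and H3c14 fell (−2.30 ± 0.86, adjusted p 0.0498, edgeR). At that limit 3092 of the 12171 genes tested were called in either direction. All 100-base stretches of H3c14 occur also in other genes, H3c13 and H3c15 among them, so some of its UMIs may belong to a copy. H3c14 had 11 UMIs over all cycling cells. With no filter on low counts 8 members were called, all higher in cycling cells: H3c4 (0.0673) and H2bc3 (0.0534, edgeR) were not among them, and H3c3, H3c8, H2ac4 and H3c2, with few UMIs, were added. In that run 4402 of the 22132 genes tested were called in either direction. H3c3 had 25 UMIs in cycling cells, at 1.63 ± 1.44 CPM, and 19 UMIs in the other cells, at 0.125 ± 0.121 CPM (SD, n = 6), and was higher in cycling cells of 5 of 6 libraries. H3c8, H2ac4 and H3c2 had 3 to 10 UMIs in cycling cells and 1 to 20 UMIs in the other cells. Cycling cells also held more myeloid marker UMIs, at 1875 to 8252 CPM over the 6 libraries, than the other cells, at 1421 to 3152 CPM. Platelet UMIs were at 48.1 to 263.1 CPM in cycling cells and 102 to 281.7 CPM in the other cells, lower in cycling cells of 6 of 6 libraries. The part of both in the values was not tested. Within B cells none of 13 members tested was called in edgeR (1 at an unadjusted p under 0.05, 4.92% of all genes called), and within T cells none of 5 was (2 under 0.05, 16.6% of all genes called).

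Of the 28 genes listed for S phase, 18 of 26 tested were higher in cycling cells and 1 was lower, where 18.9% of all genes tested were called higher. Of the 20 genes listed for G2 and M phase, which include Mki67 and Top2a themselves, 19 of 20 were higher. In 488 barcodes, with a median depth of 3254 UMIs, 5 or more core histone UMIs were counted. Depth bears on whether such UMIs are seen. Of these barcodes, 85 (17.4%) had a Mki67 or Top2a UMI, against 5.29% of all kept cells. In 292 (59.8%) there were 5 or more platelet UMIs, as in 1191 of all 49025 kept barcodes. Of the 132 among these 488 with neither, 25 were B cells, 20 NK cells, 13 classical monocytes and 11 neutrophils by gate. The highest number in 1 barcode was 45.

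Other histone genes were taken from lists of the same pathway. The linker histones H1f2, H1f3 and H1f4, which bind DNA between nucleosomes and belong to the same replication-dependent class, were the 3 of 7 linker histones tested in NK cells. All 3 rose, where 0.150% of all genes tested were called higher. H1f2 averaged 401.8 CPM in T2D and 154.0 CPM in Con libraries (log2 fold change 1.37 ± 0.15, adjusted p 3.72e-11, edgeR). H1f2 was called in each alternative run. H1f3 and H1f4 were not called with DESeq2 (adjusted p 0.265 each) or without Con library 2 (0.143 and 0.163, edgeR), nor was H1f4 without T2D library 2 (0.0812) or with the stricter gate (0.516, edgeR). In classical monocytes 2 of 3 tested rose (0.345% of all genes called), in T cells 3 of 4 (3.96%), in CD4 T cells 2 of 3 (3.79%) and in CD8 T cells 3 of 4 (2.31%). In B cells none of 5 was called (1.68%) and none was under an unadjusted p of 0.05. In neutrophils the 1 tested was not called (0.789%). In non-classical monocytes none of 3 was called, with 2 under an unadjusted p of 0.05, and the share over all genes there is not reported here. All these counts are from edgeR without cycling cells.

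Of the 12 replication-independent core histone variants, which are made throughout the cell cycle, none of 8 tested was called in NK cells in edgeR (1 under an unadjusted p of 0.05, H3f3b, adjusted p 0.0541). H3f3b, one of the pair of genes for H3.3, rose in classical monocytes, at 1554 CPM in T2D and 1033 CPM in Con libraries (0.58 ± 0.13, adjusted p 0.0338, edgeR), and was the only one of the 8 tested there that did. It was not called there with DESeq2 (0.117), with the stricter gate (0.555) or without T2D library 2, Con library 2 or Con library 3 (0.0826 to 0.368, edgeR). Of the 16 genes for transcription and end processing of histone messages, 1 of 16 rose in B cells, Srrt, which encodes the cap-binding partner ARS2 (238.4 CPM in T2D, 192.4 CPM in Con libraries, 0.29 ± 0.06, adjusted p 0.0147, edgeR). The call was lost when any library but T2D library 1 was left out (0.0503 to 0.0873, edgeR). Slbp, the stem-loop binding protein, did not pass in B cells (−0.11 ± 0.08, adjusted p 0.523) or in NK cells (0.18 ± 0.23, adjusted p 0.915, edgeR). Of the 14 histone chaperones, 1 of 14 rose in B cells, Atrx, a remodeller that works with the H3.3 chaperone Daxx (0.25 ± 0.06, adjusted p 0.0307, edgeR), and this call was lost when any library but T2D library 1 was left out (0.0531 to 0.171) and with the stricter gate (0.0604, edgeR). In CD4 T cells 1 of 13 chaperones tested fell, Nasp, a carrier of H3 and H4 (101.7 CPM in T2D, 132.9 CPM in Con libraries, −0.44 ± 0.11, adjusted p 0.0111, edgeR). It was not called with DESeq2 (0.0513), with the stricter gate (0.207), without effector-type and regulatory-type cells (0.0980) or without T2D library 1, Con library 1 or Con library 3 (0.05995 to 0.150, edgeR). In T cells 1 of 15 genes tested for transcription and end processing rose, Casp8ap2, which encodes the histone locus body protein FLASH (94.4 CPM in T2D, 76.1 CPM in Con libraries, 0.25 ± 0.07, adjusted p 0.0476, edgeR). Leaving out any 1 library ended this call (0.0574 to 0.151), as did the stricter gate (0.159), leaving out effector-type and regulatory-type cells (0.687, edgeR) and DESeq2 (0.119).

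The share of cells with any core histone UMI was compared at equal depth. After each cell was thinned to 1000 UMIs, with shallower cells left out, 27.6 ± 4.14% of NK cells in T2D libraries and 12.2 ± 5.82% in Con libraries had at least 1 (SD, n = 3 each; 588 and 294 cells, with 26 and 11 left out). Before thinning the range was 42.8 to 59.7% in T2D and 30.7 to 35.4% in Con libraries. In classical monocytes the thinned shares were 12.6 ± 1.40% in T2D and 7.27 ± 3.30% in Con libraries, without overlap, and in B cells 8.45 ± 1.31% in T2D and 9.99 ± 0.34% in Con libraries, with overlap. In CD4 T cells, whose summed level did not overlap, the thinned shares were 5.44 ± 0.21% in T2D and 5.30 ± 1.00% in Con libraries, with overlap, and before thinning 18.4 to 18.8% in T2D and 15.5 to 15.9% in Con libraries. All T cells overlapped as well, at 5.17 to 5.69% in T2D and 4.95 to 5.27% in Con libraries. In neutrophils they were 25.1 ± 3.79% in T2D and 32.5 ± 3.58% in Con libraries, without overlap. CD8 T cells, with 5.07 ± 0.027% in T2D and 4.64 ± 1.31% in Con libraries, had the lowest shares among these gates, and free RNA in the droplets or wells can give such UMIs in any cell.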

How the data were processed

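Single-cell libraries of blood mononuclear cells, isolated on Ficoll with lysis of red cells, were made by 3′ capture with cell labels and UMIs (BD Rhapsody), per the labels' protocols. The authors deposited raw UMI counts per gene and cell. CASAVA 1.8, UMI-tools, Seurat and the build mm10 are named in the submitters' processing notes, and no source used here gives the aligner or the annotation. Barcodes were dropped if they had under 200 genes or over 20% of UMIs from mitochondrial genes. Doublets (1556 called by Scrublet in scanpy 1.11.5) were kept and left out in an alternative.

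Cells were gated by raw UMIs of lineage markers. The B and NK gates allowed at most 1 UMI of each other lineage sum. The T cell gates allowed at most 1 B, 1 myeloid and 1 platelet UMI and set no limit on NK markers. The monocyte and neutrophil gates allowed at most 1 T, 1 B and 1 platelet UMI and set no limit on NK markers. The stricter gate allowed no UMI of the sums that were limited. NK cells had at least 2 UMIs of Ncr1, Klrb1c and Klre1, B cells at least 2 of a marker list with Cd79a, Cd79b and Ms4a1 among its genes (the list is not reported here in full), and T cells at least 2 of Cd3d, Cd3e and Cd3g. Cells with at least 1 Mki67 or Top2a UMI were called cycling. Counts were summed per library and gate and tested with edgeR 4.0.16 (R 4.3.3, robust quasi-likelihood test, TMM, filterByExpr) in gates with at least 30 cells in every library. P-values were adjusted by Benjamini-Hochberg over all genes tested in the gate, with a threshold of 0.05. Alternatives were DESeq2 1.42.0, other scaling, filters and gates, a replicate block and leaving out each library. The fits were also run on counts simulated for the B and NK gates, with the same dispersion for every gene. The spread of these members between libraries was not simulated, and the outcome is not reported here.

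The 8 members with the most UMIs and every member called in a gate were described by name. The members and lists were chosen with earlier results of these data known.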

Additional observations from a re-analysis of the deposited data

How the results depend on the processing

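Of the genes named with a fold change between T2D and Con within a gate or over all kept cells, 2 turned sign, neither of them called: H2bc6 in B cells (−0.31 to 0.34 with 1 library left out, below 0 without T2D library 1 or Con library 1, and −0.039 with the stricter gate) and Slbp in NK cells (−0.0099 to 0.31, below 0 without T2D library 3), on the log2 scale. The interaction terms were not run under the alternatives. No summed ratio of T2D to Con crossed 1 when mitochondrial and ribosomal protein genes were left out of the total. When 1 library was left out, which was added after seeing the data, the ratio without cycling cells stayed on its side of 1 in NK cells (1.86 to 2.12), classical monocytes (1.62 to 1.78), CD4 T cells (1.22 to 1.27), T cells (1.10 to 1.15), T cells with Ccl5 or Nkg7 UMIs (1.07 to 1.29), neutrophils (0.672 to 0.933) and B cells (0.768 to 0.890). It crossed 1 in CD8 T cells (0.984 to 1.17) and non-classical monocytes (0.959 to 1.46), both without Con library 3, and over all kept cells (0.910 to 1.02), without T2D library 3 or Con library 2. With cycling cells it was 1.38 to 1.71 in classical monocytes, 1.15 to 1.40 in CD8 T cells, 1.27 to 1.56 in T cells with Ccl5 or Nkg7 UMIs and 0.679 to 0.903 in neutrophils, and it crossed 1 in non-classical monocytes (0.969 to 1.48, without Con library 3) and over all kept cells (0.934 to 1.05, without T2D library 3, at 1.03, or Con library 2). Without cycling cells, the ratio over all kept cells without T2D library 3 was 1.01. Within the gates with cycling cells, 2 members were called (H4c14 in B cells, H2bc8 in CD8 T cells), against 0 with DESeq2 (which gave H4c14 no adjusted p), 0 with a stricter gate, 1 with doublets left out and 1 with no platelet UMI, and 0 to 3 when 1 library was left out. Without cycling cells, 1 member was called (H2bc8 in NK cells), against 0 with DESeq2, 0 with a stricter gate, 0 with doublets left out, 2 with no filter on low counts and 0 to 4 when 1 library was left out. The count stayed at 1 with library totals only and with wider removal of cycling cells, but the gene was then H4c14 in B cells. Over all kept cells 0 members were called with or without cycling cells, and 0 to 1 when 1 library was left out, the 1 being H2bc21 without T2D library 1. Cycling against other cells, 6 members were called, 8 with no filter on low counts, and 3 to 6 when 1 library was left out. The causes were not tested. For T2D against Con, the shares of all genes called in the alternative runs, the replicate block below included, are not reported here. The member counts of those runs can therefore not be set against all genes.

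Libraries with the same number did not deviate together in every pair (correlations of −0.22 to 0.40 over all kept cells without cycling cells). The median over pairs with different numbers was 0.027. These few correlations cannot decide whether the numbers pair the libraries, and the main fits used no pairing. With the number as a replicate block, 3 members were called with cycling cells (H4c14 in B cells, H2bc8 in T cells and in NK cells, but H2bc8 in CD8 T cells at an adjusted p of 0.0647) and 2 without (H4c14 in B cells, H2bc8 in NK cells), and 1 over all kept cells in each set (H2bc21). The alternative with no platelet UMI, and those of scaling, doublets, mitochondrial share and wider removal over all kept cells, were chosen after seeing the data. The stricter gate was not run for non-classical monocytes and neutrophils. The gates of regulatory-type T cells and antibody-secreting cells had under 30 cells in a library and were not tested. Few UMIs limit what could be tested: without cycling cells, 0 to 1 members passed the filter on low counts in the monocyte and neutrophil gates, and 3 in NK and in CD4 T cells.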
